A study of Mus musculus with 10 samples.

Results

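Near-fully methylated regions are short stretches of the genome in which, on average over the samples, almost every sequenced read was methylated. They were taken from reduced representation bisulfite sequencing (RRBS), in which DNA is cut at CCGG sites and bisulfite turns unmethylated cytosines into bases read as T, so that the share of reads with C at a CpG gives its methylation level. CpGs of the autosomes at most 100 b apart were joined into regions, both strands of a CpG were counted once, and regions with at least 3 CpGs were kept. A region belonged to the set when its level, the methylated reads summed over its CpGs divided by all reads there, averaged at least 95% over the 10 samples. The rule gave 336 of 117641 autosomal regions, which is 0.286%. Because the measured level chose the regions, that level is a description of them and not a result, and no test was made of it. The rule treated all samples alike, without regard to group.

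The cells were labelled prospermatogonia, the germ cells of the fetal testis, and came from F1 embryos of C3H/HeN mice near the end of gestation. In the control group (5 samples) the dams drank tap water, and in the arsenic group (5 samples) their water held sodium arsenite for part of the pregnancy. Testes of several embryos were pooled per sample, and from each pool cells carrying the surface antigen Thy1 were taken by magnetic separation, so the pool is the replicate. The series title names type A spermatogonia, while the sample labels and the methods name prospermatogonia, and the latter name is used here.

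In male germ cells methylation is erased early in fetal life and is then laid down again before birth, in cells that have stopped dividing. De novo methyltransferases act with a cofactor that recognises unmethylated histone H3, and the bodies of transcribed genes are among the sequences they fill. Promoters rich in CpGs mostly stay unmethylated, and a level close to the ceiling is what a finished region shows when nearly every cell of the pool carries the mark on both alleles.

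Autosomal calls numbered 43664162 to 65826784 per sample, and median coverage per cytosine was 25 to 40 reads. A typical near-fully methylated region had 144 reads per sample, and with 138 of them methylated the 95% Wilson interval of its level was 91.2 to 98.1%. This interval covers counting error only and takes reads as independent. The labelled cell type was checked at promoters of genes listed for their methylation in body cells. Promoters of 14 genes listed for maternal imprints averaged 30.6% ± 2.89 (SD, n = 5, 27.2 to 33.1%) in the control group and 32.9% ± 6.33 (23.1 to 39.9%) in the arsenic group. Such imprints are erased in fetal male germ cells. Whether each promoter holds the imprinted stretch of its gene was not tested. Snrpn and Snurf gave the same values (34.6% in the control and 34.1% in the arsenic group, 14 CpGs), so they are not separate markers. Promoters of 19 germline genes averaged 46.1% ± 2.03 (43.4 to 49.0%) and 48.9% ± 8.53 (36.2 to 59.8%). Neither list averaged near 0 in any sample. Complete erasure was thus not seen over the imprint list, and these values do not by themselves bear out the label. Single promoters ranged in the control group from 2.68% at Grb10 to 49.4% at Mest and from 0.599% at Tdrd5 to 67.4% at Mael, and Grb10, Tdrd5, Stag3 and Smc1b stood under 5% in every sample. The part of other cell types in the results was not tested.

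Sequences of 6 of the regions are shown because the results below turn on them. They are the regions with the largest drop and the largest rise among those whose groups did not overlap, the pair with the most CpGs, the region with the highest level among those with at least 10 CpGs, and the region with the highest level of all, which was chosen after its values were seen. All are plus strand sequence of GRCm38 (mm10), 5′ to 3′, and capitals mark the CpGs measured here. The last carries 20 b of flank on each side.
Mcph1 intron, chr8:18598592-18598655: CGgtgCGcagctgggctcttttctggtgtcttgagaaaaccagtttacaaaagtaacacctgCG
Helz intron, chr11:107621288-107621399: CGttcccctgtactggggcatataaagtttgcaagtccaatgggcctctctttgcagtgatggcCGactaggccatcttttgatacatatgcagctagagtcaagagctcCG
intergenic, chr17:74906648-74906863: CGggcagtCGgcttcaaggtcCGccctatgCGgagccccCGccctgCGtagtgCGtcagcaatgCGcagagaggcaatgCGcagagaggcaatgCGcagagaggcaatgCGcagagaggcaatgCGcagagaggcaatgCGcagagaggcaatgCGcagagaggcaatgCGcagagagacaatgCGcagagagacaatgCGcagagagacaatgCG
intergenic, chr4:61768423-61768623: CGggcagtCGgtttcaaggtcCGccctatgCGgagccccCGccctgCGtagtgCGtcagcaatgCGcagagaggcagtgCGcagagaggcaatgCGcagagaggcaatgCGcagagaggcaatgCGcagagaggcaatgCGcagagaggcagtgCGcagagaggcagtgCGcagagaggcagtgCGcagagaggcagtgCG
Rapgef6 intron, chr11:54582392-54582589: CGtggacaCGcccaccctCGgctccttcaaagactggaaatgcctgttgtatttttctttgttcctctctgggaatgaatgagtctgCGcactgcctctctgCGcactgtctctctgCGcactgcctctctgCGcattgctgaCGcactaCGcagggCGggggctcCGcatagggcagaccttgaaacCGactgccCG
Cep128 intron, chr12:91230057-91230112: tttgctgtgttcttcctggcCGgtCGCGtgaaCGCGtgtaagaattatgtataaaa

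The near-fully methylated regions were short and held few CpGs. Of the 336, 190 (56.5%) had exactly 3 CpGs, against 25.3% of all autosomal regions, and 6 had 10 or more, against 22187 regions (18.9%) of all. Their median span was 56 b, compared with 129 b over all regions. How far a small number of CpGs helped a region to pass the threshold was not tested. The depth was somewhat below the rest, with a median of 41.4 reads per CpG and sample against 49.3.

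Full methylation was approached and not reached. The highest mean level was 98.6%, 85 regions reached 96%, 18 reached 97%, 3 reached 98% and 0 reached 99%. Of the 1335 CpGs inside the regions, 892 (66.8%) averaged at least 95%, 419 averaged 90 to under 95%, and 24 were under 90%, with the lowest at 84.6%. In 44 regions every CpG stood at 95% or more, and 6 CpGs were methylated in every read of every sample. Of the 1335 CpGs, 319 (23.9%) lay in a CCGG site, as did 25.3% of all autosomal CpGs of the table. Where a CpG was read on both strands, which was so for 398, the plus strand averaged 95.7% and the minus strand 95.6%.

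The regions on either side of the 95% threshold had nearly the same level. The members nearest above it lay in exon 5 of Ell, an elongation factor of RNA polymerase II, in an intron of Slit3, a secreted guidance protein, and in an intron of Dctn1, a dynactin subunit. The regions nearest below it lay in introns of Rps6ka2, a ribosomal S6 kinase, of the small GTPase gene Ralb and of Lmtk2, a membrane-anchored kinase. All 6 had a mean of 95% after rounding. Between the groups, those inside differed by -1.23, -3.70 and -4.17 points and those outside by 0.905, -0.601 and 1.02 points. Beyond them, 6183 regions (5.26%) averaged 90 to under 95%, and these are the natural neighbours for comparison.

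Introns held most of the near-fully methylated regions. By annotation, with promoters (1 kb upstream to 100 b downstream of a start site) assigned first, 214 (63.7%) were intronic, against 54.5% of the regions at 90 to 95% and 35.5% of all. Coding exons held 51 (15.2%), against 21.2% and 12.9%, and 50 (14.9%) were intergenic, against 18.2% and 32.2%. Promoters held 9 (2.68%), against 2.30% and 15%. A further 8 lay in UTR exons and 4 in other exons. In all, 285 (84.8%) overlapped a gene and 270 (80.4%) a protein-coding gene, compared with 64.3% and 57.2% of all regions. These shares describe the regions, and no enrichment test was made.

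**Figure D1:**
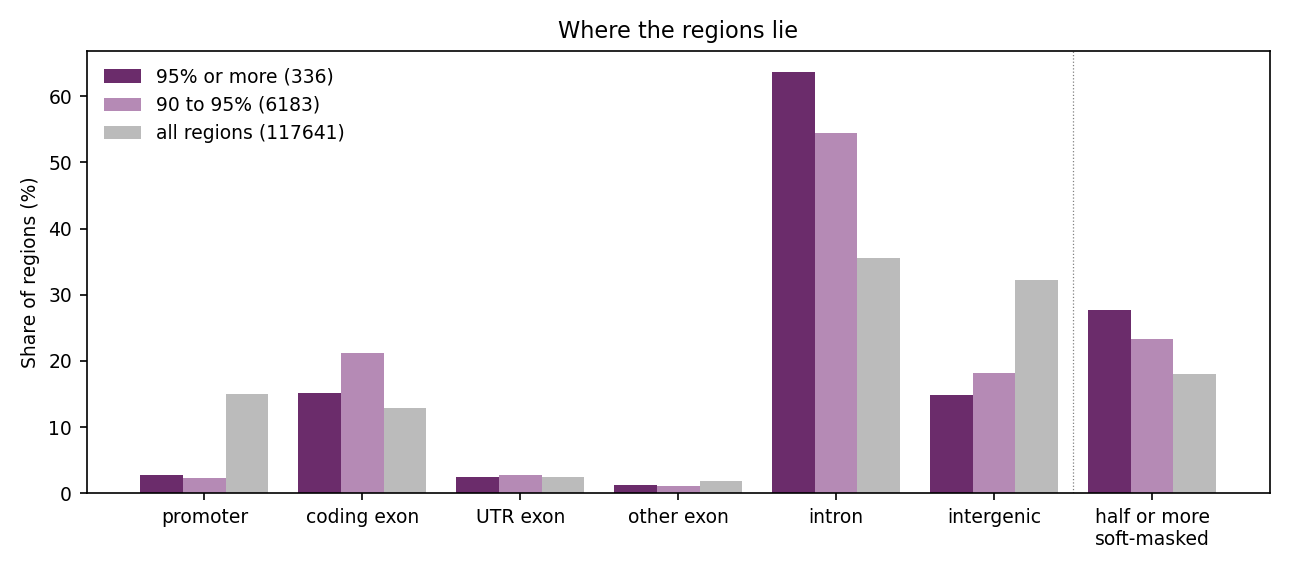
Share of regions (%, bars from 0) by annotation class, and to the right of the dotted line by overlap with soft-masked (repeat) sequence, for regions at 95% or more (dark), at 90 to 95% (light) and all autosomal regions (grey). Introns hold 63.7% of the near-fully methylated regions against 35.5% of all, and promoters 2.68% against 15%.

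Within genes, the regions lay away from the start. With each protein-coding gene cut into 4 equal parts, the part nearest the start held 17.4% of the 270 regions in such genes, the next 26.3%, the one after it 30.4% and the last 25.9%. Over all regions in such genes the part nearest the start held 38.3%. The median distance to the nearest start site was 13820 b, against 8766 b over all regions, and 59 regions (17.6%) had a start site within 5 kb, against 39.5%. The sequence around them was poorer in CpGs, with a median observed/expected CpG ratio over 500 b of 0.327 against 0.383, and 16 regions (4.76%) reached a ratio of 0.6, against 18.8%. The regions at 90 to 95% had a median ratio of 0.328 and a median distance of 14049 b, so in these respects the near-fully methylated regions resembled their neighbours in level.

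Soft-masked, that is repeat, sequence was either extensive or absent in most regions. Soft-masked bases made up 50% or more of 93 regions (27.7%), against 23.3% of the regions at 90 to 95% and 18% of all. Masked throughout were 59 (17.6%), against 14.8% of the regions at 90 to 95% and 9.86% of all. Regions without a soft-masked base numbered 192 (57.1%), close to the 55.1% of the regions at 90 to 95% and the 54.2% of all. The near-fully methylated regions were also shorter than the rest, and the part of length in these shares was not tested. Repeat families were not analysed here.

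The level fell off with distance from the regions. CpGs beyond the joining distance and within 300 b of an edge averaged 87.2% (496 CpGs), those up to 1 kb away 84.5%, up to 3 kb 71.8%, up to 10 kb 52.4% and up to 50 kb 44.2%. The mean over all autosomal CpGs was 46.0%. Around regions at 90 to 95% the same steps gave 84.0, 78.7, 58.1, 45.3 and 40.5%. The level of the regions themselves was set by the rule, whereas that of the flanks was not, and up to 10 kb away it was above the mean of all CpGs.

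**Figure D2:**
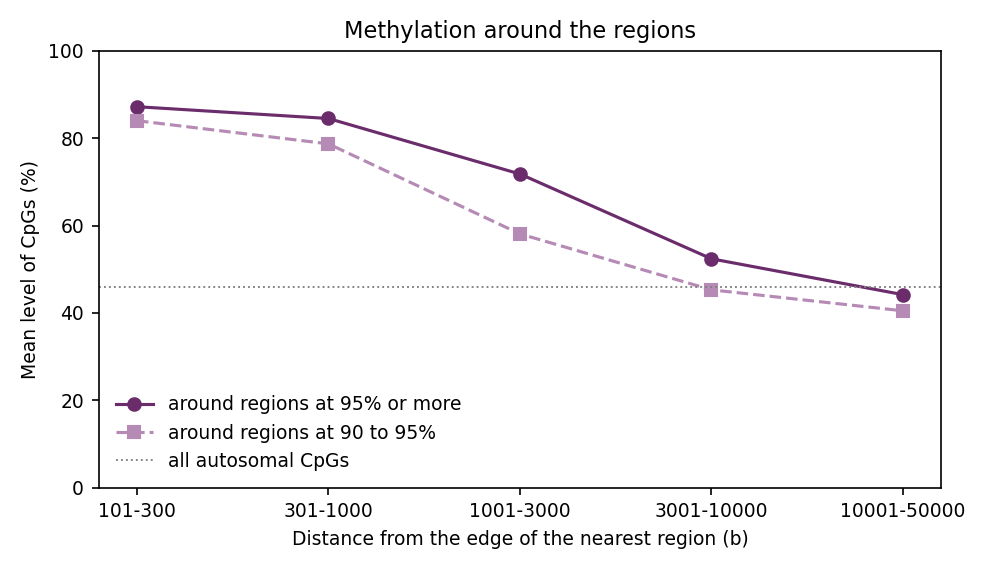
Mean methylation level of CpGs (%, axis from 0 to 100) in steps of distance (b, unequal steps) from the edge of the nearest region at 95% or more (solid line) and at 90 to 95% (dashed line), as means over the 10 samples, and the mean of all autosomal CpGs (dotted line, 46.0%). The level around the near-fully methylated regions falls from 87.2% to 44.2%.

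The regions were spread over all 19 autosomes. Per 1000 regions of a chromosome, they numbered from 1.6 on chromosome 7 to 4.34 on chromosome 17, with 4.21 on chromosome 9. In windows of 1 Mb, 282 held at least 1, 42 held 2 or more and 9 held 3 or more. The fullest window, at 84 to 85 Mb of chromosome 17, had 5 among its 94 regions, in AC091309.5, in Lrpprc, which encodes a regulator of mitochondrial RNA, and in Thada. The next, at 33 to 34 Mb of chromosome 16, had 4 of 91, in the integrin gene Itgb5, the transporter gene Slc12a8 and the sorting nexin gene Snx4. The window at 23 to 24 Mb of chromosome 5 had 3 of 64, all in AI506816. At the level of genes, 265 held a region, 18 held 2 or more, and AI506816 and Smad3, a transducer of TGF-beta signals, held 3 each.

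A sequence was shared by the regions with the most CpGs. The 5 largest were intergenic on chromosome 17 (18 CpGs, from 74906648, and 14 CpGs, from 80855031) and chromosome 4 (17 CpGs), and intronic in Rapgef6, which encodes an exchange factor for Rap GTPases (13 CpGs), and in Nell1, which encodes a secreted glycoprotein (10 CpGs). In pairs, their best-matching stretches (local alignment, 141 to 235 positions with gaps) were 79.1 to 96% identical. In the sequences printed above, a short unit with 1 CpG recurs in tandem, on the opposite strand in Rapgef6. The 12-letter stretch TGCGCAGAGAGG of this unit, which all 5 held, was chosen after the sequences were seen and was searched on both strands. It was found in 155 of all autosomal regions (0.132%), of which 116 were intergenic and 35 intronic, and the median region with it was soft-masked throughout. Of the near-fully methylated regions, 7 (2.08%) held it, and 70 more regions with it lay at 90 to 95%. The 7 include the 5 regions from which the stretch was chosen, so their share was largely set by that choice. Regions with the stretch were mostly high in level, with quartiles of 84.7 and 93.0% and 3 under 50%. Their mean was 86.3% ± 0.823 (SD, n = 5; 85.0 to 87.3%) in the control group and 86.9% ± 1.75 (84.7 to 89.2%) in the arsenic group, and the groups overlapped. Reads from near-identical copies can be misplaced, so the level of any single copy is uncertain.

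The question for these regions was whether the arsenic pools lost a few points where methylation was almost complete. The answer was a shift of under 1 point. The mean unmethylated level over the 336 regions was 3.57, 3.58, 4.05, 4.36 and 3.92% in control samples 1 to 5 and 5.12, 4.79, 4.40, 4.54 and 4.46% in arsenic samples 1 to 5. All arsenic samples were higher than all control samples, but the nearest pair, control 4 and arsenic 3, stood almost together. The group means were 3.90% ± 0.337 and 4.66% ± 0.299 (SD, n = 5 each), which corresponds to levels of 96.1 and 95.3% and a difference of -0.765 points, or a ratio of unmethylated levels of 1.20. No p-value is given for this mean, since the regions were chosen with earlier results of these data known.

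The shift depended little on the way of averaging, while the separation of the groups did. The unmethylated share of all reads summed over the regions was 3.92% ± 0.255 (3.62 to 4.30%) in the control group and 4.67% ± 0.293 (4.33 to 5.12%) in the arsenic group, again without overlap. With the reads of each region thinned to the lowest of the 10 samples, the means were 3.92 and 4.68%, but control 4 then stood at 4.43% and the lowest arsenic sample at 4.34%. The median over the regions was 3.61% ± 0.402 in the control and 4.37% ± 0.306 in the arsenic group, with overlap. Arsenic sample 1 was the most extreme. Without it the arsenic mean was 4.54% and the difference was 0.648 points of unmethylated level. When the regions were chosen again without control 1 or without arsenic 5, the differences in level were -0.528 and -0.819 points and the groups overlapped.

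Counts of regions below the threshold gave a similar picture. Between 83 and 119 of the 336 regions fell under 95% in a control sample and between 118 and 159 in an arsenic sample. Regions under 90% numbered 5 to 14 in control samples and 7 to 34 in arsenic samples, and arsenic sample 1 gave the 34. Their medians were 11 and 10, and without arsenic 1 the means were 9.20 and 10.2, so this count differed mainly through that sample. Regions at 100% numbered 20 to 53 and 11 to 33. The groups overlapped in all 3 counts.

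**Figure D3:**
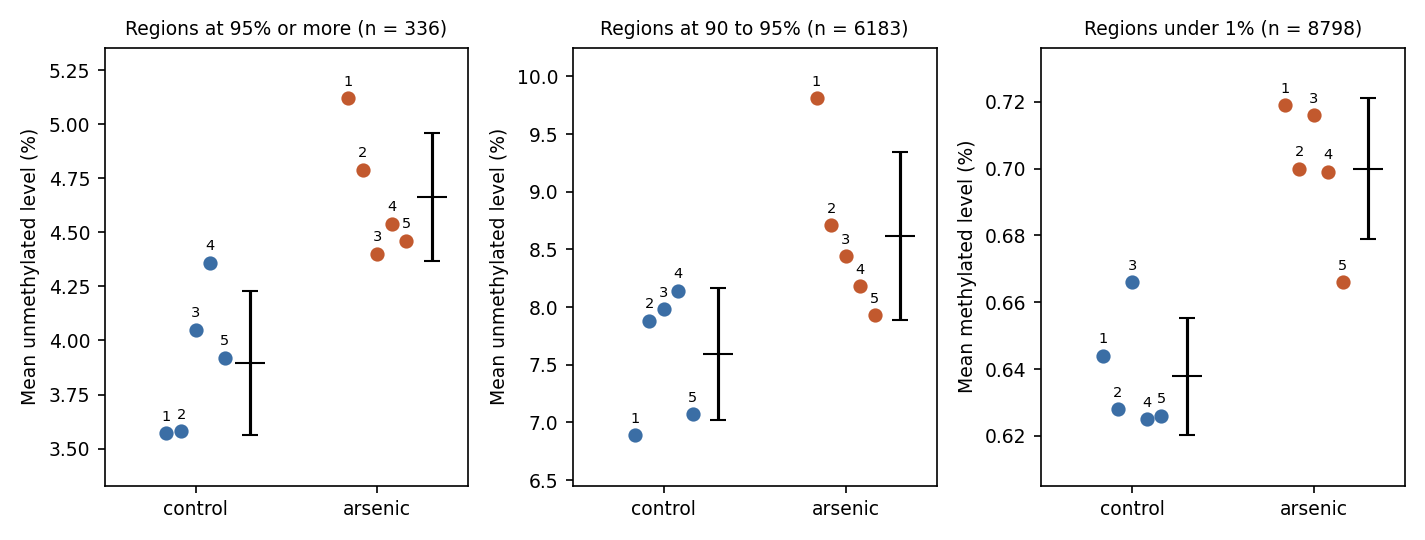
Mean unmethylated level (%) per sample in regions at 95% or more (left) and at 90 to 95% (middle), and mean methylated level (%) in regions under 1% (right). The y axes differ between panels and do not start at 0. Points are samples with their replicate numbers, and bars give the group mean and SD (n = 5). In the left panel arsenic samples lie at 4.40 to 5.12% and control samples at 3.57 to 4.36%.

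The arsenic means were also lower at neighbouring levels. In the 6183 regions at 90 to 95% the unmethylated level was 7.59% ± 0.567 in the control and 8.62% ± 0.730 in the arsenic group, with overlap, a difference of 1.02 points. Between 80 and 90% the level differed by -1.33 points with overlap, and by -0.717 points without arsenic 1. Within the near-fully methylated regions, the 251 at 95 to 96% differed by -0.909 points without overlap, and the 85 above 96% by -0.339 points with overlap. As ratios of the unmethylated level, arsenic to control, these steps gave 1.09 at 80 to 90%, 1.14 at 90 to 95%, 1.2 at 95 to 96% and 1.10 above 96%. A lower level in the arsenic group was thus also seen below the 95% threshold, and the difference between these steps was not tested.

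At the opposite end of the scale the arsenic samples were also nearer to the middle. In 8798 regions with a mean under 1%, the methylated level was 0.644, 0.628, 0.666, 0.625 and 0.626% in control samples 1 to 5 and 0.719, 0.700, 0.716, 0.699 and 0.666% in arsenic samples 1 to 5. The groups did not overlap, although control 3 and arsenic 5 were equal after rounding. The means were 0.638% ± 0.0176 and 0.700% ± 0.0209, a ratio of 1.10. Whether errors of conversion or base calling differ between the groups was not tested. Over all autosomal regions the mean was 53.7% ± 0.748 in the control and 52.9% ± 2.18 in the arsenic group, with overlap. Without arsenic 1 the arsenic mean was 53.8% and the difference turned from -0.810 to 0.0916 points. The direction over all regions thus rested on that sample. Arsenic 1 averaged 49.3% over all regions and arsenic 5 55.0%, the lowest and the highest of the 10 samples. These samples were also lowest and highest at the promoters of the imprinted genes (23.1 and 39.9%) and of the germline genes (36.2 and 59.8%). The reason for this parallel was not tested.

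**Figure D4:**
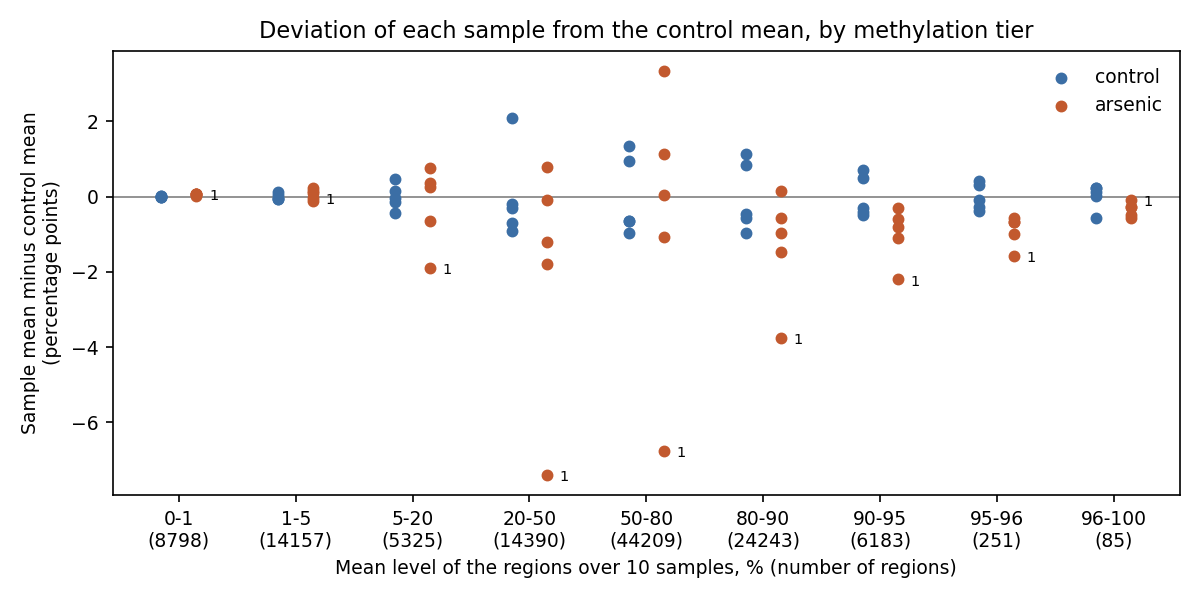
Mean level of each sample minus the control mean (percentage points) for regions grouped by their mean level over the 10 samples (number of regions in brackets). Blue points are control and orange points arsenic samples (n = 5 each), and 1 marks arsenic sample 1. Regions at 95 to 96% differ by -0.909 points between the group means, those at 96 to 100% by -0.339 and those at 20 to 50% by -1.96, where arsenic sample 1 lies far below the rest.

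Region by region, the differences were small and pointed both ways. The arsenic mean was lower in 226 regions (67.3%) and higher in 110, where 57.9% of all autosomal regions and 69.1% of those at 90 to 95% were lower. The median difference was -0.656 points, against -0.434 points over all regions, with quartiles of -1.83 and 0.406 points. A drop of 2 points or more was seen in 73 regions and a rise of that size in 20, and the range ran from -7.84 to 5.43 points. The median SD between control samples was 2.24 points in a single region, and most of these differences were smaller. This SD is the spread of single samples and not the error of a difference between group means.

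No region passed a test with the pool as replicate. Limma was fitted over all 117641 regions to log2 quotients of methylated and unmethylated counts, with 1 added to each. After Benjamini-Hochberg adjustment 0 of the 336 regions had p under 0.05, as had 0% of all regions, and the smallest adjusted p in limma was 0.702. At an unadjusted limma p under 0.05, 35 regions (10.4%) were lower in the arsenic group, where 4.89% of all regions and 6.71% of those at 90 to 95% were. In the other direction 6 regions (1.79%) were higher, where 2.10% of all regions were. The first of these counts depended on the scale and on a single control sample. On the level in percent, limma gave 22 lower regions (6.55%), against 6.20% of all, and without control 1, with the regions chosen again, it gave 19 (6.29%), against 3.83% of all. Without arsenic 1 the higher regions numbered 13 (3.09%), against 3.84% of all. Regions with all arsenic samples below all control samples numbered 1 (0.298%), against 1.01% of all regions, and regions with all arsenic samples above numbered 1, against 0.323%. On the log2 scale the share called lower at an unadjusted p was thus above that of all regions, and in percent it was close to it. The share entirely below the controls rested on 1 region, and its direction against all regions depended on the setting. It was 1.40% against 1.02% of all with unweighted CpG means and 0.893% against 0.762% with thinned reads. With a gap of 50 b it was 0.413% against 0.798%. No test of these shares was made.

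The region without overlap and with lower arsenic values lay in an intron of Mcph1, which encodes microcephalin, a protein of chromosome condensation and the DNA damage response. Its level was 99.3, 96.1, 97.7, 96.8 and 98.7% in control samples 1 to 5 and 92.0, 95.5, 95.6, 89.7 and 93.6% in arsenic samples 1 to 5. The lowest control and the highest arsenic value were 96.1 and 95.6%. The means were 97.7% ± 1.31 and 93.3% ± 2.49 (n = 5 each), a difference of -4.45 points, with a log2 ratio difference of -1.46 ± 0.384 (SE) and an adjusted p of 0.702 in limma. It rested on 126 to 222 reads per sample, and its 64 b sequence occurs once in the autosomal reference, with 0% soft-masked.

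The region without overlap and with higher arsenic values lay in an intron of Helz, which encodes a zinc finger RNA helicase. Control samples 1 to 5 stood at 94.7, 95.2, 95.3, 94.6 and 92.4%, and arsenic samples 1 to 5 at 95.5, 97.5, 97.2, 97.7 and 97.9%. The nearest values, 95.3 and 95.5%, almost touched. The means were 94.4% ± 1.19 and 97.1% ± 0.983, a difference of 2.72 points (adjusted p = 0.702, limma). This region was soft-masked throughout, and its 112 b sequence, printed above, occurs at 46 places of the autosomal reference, itself included, so reads from other copies cannot be told apart by the sequence inside it.

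The smallest unadjusted p belonged to an intronic region of Ccdc170, which encodes a coiled-coil protein. Its control samples stood at 100, 100, 98.9, 96 and 100% and its arsenic samples at 83.3, 88.9, 93.8, 93.2 and 96.4%. The groups overlapped by the span between 96 and 96.4%, and the difference of -7.84 points was the largest drop of the set. It rested on 3 CpGs within 14 b (chr10:4548228-4548241) and 45 to 111 reads per sample (unadjusted p = 0.000812 and adjusted p = 0.702, limma).

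Next came an intronic region of Tpm1 (chr9:67027675-67027717), which encodes the actin-binding protein tropomyosin 1. It was at 98.1, 100, 100, 100 and 95.2% in control samples 1 to 5 and at 89.7, 90.5, 95.2, 91.8 and 95.6% in arsenic samples 1 to 5. Most arsenic samples lay lower, but control 5 and arsenic 3 were equal after rounding. The difference was -6.09 points (adjusted p = 0.702, limma), on 42 to 147 reads per sample.

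Among regions with higher arsenic values, the next after Helz by p lay in an intron of Pebp4 (chr14:69907229-69907247), a phosphatidylethanolamine-binding protein gene. Its levels were 97.6, 93.5, 93.3, 94.4 and 90.5% in control samples 1 to 5 and 98.2, 94.1, 98.8, 97.9 and 98.3% in arsenic samples 1 to 5. Arsenic 2 lay among the control values. The means were 93.9% ± 2.55 and 97.4% ± 1.87, a difference of 3.57 points (adjusted p = 0.702, limma).

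Other large drops, chosen after their values were seen, were found in Sptb, which encodes a beta-spectrin (-5.49 points), in exon 9 of Ecd (-5.31 points), in Lss, which encodes lanosterol synthase (-4.70 points), in the polycomb gene Pcgf5 (-4.59 points), in exon 12 of Taf4, a TFIID subunit gene (-4.46 points), and in the casein kinase gene Csnk1e (-4.45 points). None of them separated the groups. In Pcgf5 a single sample, arsenic 2 at 80.9%, lay far below the rest, and the arsenic SD was 7.71 points. The largest rise, 5.43 points, was at an intronic region of Slit3 (chr11:35647865-35647931), where control samples ranged from 85.2 to 100% and arsenic samples from 93.1 to 100% on 30 to 78 reads. The other Slit3 region, just above the threshold, differed by -3.70 points, so regions of the same gene pointed opposite ways.

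The differences were narrower at greater depth. In the 99 regions with under 100 reads per sample the SD of the differences was 2.14 points, and in the 27 with 400 or more it was 1.09 points. The median difference was -0.940 points in the former and -0.543 in the latter, and the share lower in the arsenic group was 67.7% and 74.1%. On average the 27 deepest regions differed by -0.722 points. Of all regions, at any depth, 57.9% were lower. The deepest regions include that of Rapgef6 and others with the shared stretch, and the part of depth in the shift was not tested.

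**Figure D5:**
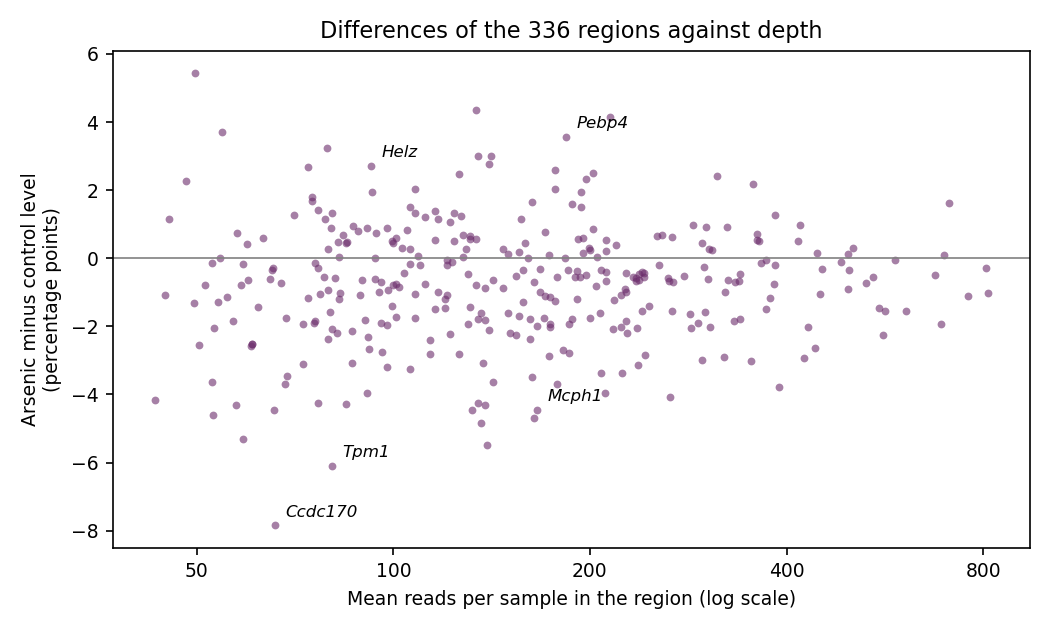
Arsenic minus control level (percentage points) of each of the 336 regions against its mean reads per sample (log scale). Each point is a region, and the regions of Ccdc170, Tpm1, Mcph1, Helz and Pebp4 are named. The spread narrows to the right, from an SD of 2.14 points under 100 reads to 1.09 points at 400 or more.

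By location, the mean difference was -0.713 points in the 214 intronic regions, -1.08 points in the 51 of coding exons and -0.471 points in the 50 intergenic ones. The sample means overlapped between the groups in each of these classes. Regions with under 50% of soft-masked bases (243) differed by -0.829 points without overlap, and the 93 with more by -0.596 points with overlap, or -0.331 points without arsenic sample 1. The 16 regions in CpG-richer sequence, with an observed/expected ratio of at least 0.6, differed by 0.0570 points, and 8 of them were lower. The difference between these classes was not tested.

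Promoters were a rare location. The 9 promoter regions were all lower in the arsenic group, by -1.74 points on average, with 96.6% ± 1.53 (94.7 to 98.5%) in the control and 94.9% ± 0.652 (94.0 to 95.7%) in the arsenic group, and the groups overlapped. They and the highest levels below were chosen after their values were seen. Most lay inside a larger gene, in the promoter window (1 kb upstream to 100 b downstream of a start site) of another gene. The middle of the 9 regions lay 12 to 973 b from the nearest start site. The region in Ckap5, a microtubule regulator gene, falls in the window of Snord67, a small nucleolar RNA gene. Those in Enah, Btbd9, Galnt12, Bcl7a, Dhx32 and Hydin fall in the windows of Gm37258, AC113540.1, Gm12424, Gm23458, Gm15483, and Gm22701 and Gm47306. The remaining ones fall in the windows of AI506816 and, outside larger genes, of Gm37089. The largest drops were at Dhx32 (-4.84 points), which encodes a DEAH-box helicase, and Galnt12 (-3.97 points), which encodes a glycosyltransferase of O-linked sugars. At Dhx32 the control samples were at 100, 100, 100, 93.3 and 95.6% and the arsenic samples at 84.6, 89.0, 96.9, 95.6 and 98.5%, so that only arsenic 1 and 2 lay below every control.

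The regions with the most CpGs differed in both directions. The chromosome 17 region of 18 CpGs was at 95.2, 89.5, 97.5, 93.7 and 96.6% in control samples and at 95, 97.2, 93.3, 97.8 and 97.3% in arsenic samples (501 to 1117 reads). The chromosome 4 region of 17 CpGs was at 93.0, 96.7, 97.5, 96.2 and 94.6% and at 94.2, 92.3, 94.8, 95.5 and 96.6%. In both the groups overlapped widely, with differences of 1.61 and -0.914 points. The chromosome 17 region of 14 CpGs differed by -1.45 points, with arsenic samples from 89.7 to 97.5% around the control samples at 95.2 to 97.1%. The Rapgef6 region was at 95.8% ± 1.97 and 95.9% ± 2.23. That of Nell1 was at 97.2, 96, 96.6, 95.5 and 96.6% in control samples and at 96.7, 94.4, 93.6, 93.2 and 94.6% in arsenic samples. All but arsenic 1 lay below every control there, and the difference was -1.83 points (adjusted p = 0.727, limma). Over the 7 regions with the shared stretch the mean difference was -0.243 points.

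The highest level of the set, 98.6%, was in an intron of Cep128, a centriole protein gene, at 5 CpGs within 16 b whose sequence is printed above. Control samples stood at 99.5, 99.5, 98.9, 97.1 and 98.2% and arsenic samples at 99.1, 98.9, 98.7, 98.9 and 97.4%, on 276 to 945 reads. The groups lay together, with a difference of -0.0447 points. The regions next in level were in introns of Hspbap1 (98.2%), of the endocytosis GTPase gene Dnm2 (98.1%), of the Golgi protein gene Golga4 (97.6%) and of Entpd7 (97.6%).

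Gene groups were read from lists of symbols, by counting the regions inside their genes. Lists of motor proteins gave 6 near-fully methylated regions of 876 (0.685%), collagens and laminins 3 of 471 (0.637%), cadherins 2 of 531 (0.377%), solute carriers 5 of 1423 (0.351%) and zinc finger genes 1 of 1131 (0.0884%), where all regions gave 0.286%. The enzymes and readers of DNA and histone methylation gave 1 of 148, in an intron of Nsd3, a histone H3 lysine methyltransferase gene, at 96.7% ± 2.58 in the control and 95.9% ± 1.62 in the arsenic group. These counts are too small to compare the lists.

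Several lists held none. There were 0 among the 21 regions of paternally imprinted genes, whose median level was 66.6%, and 0 among 67 of maternally imprinted genes, 84 of germline genes, 161 of spermatogonial genes, 80 of genes of fetal testis body cells, 91 of arsenic metabolism and one-carbon genes, 146 of Hox genes, 35 of histone genes, 1264 of ion channels, 248 of ADAM proteases and 212 of semaphorins and plexins. At the overall share of 0.286%, all but the ion channel list would hold fewer than 1.

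Within the lists, most regions differed by less than their spread. In Col18a1, which encodes a collagen of basement membranes, 7 CpGs (chr10:77091169-77091257) stood at 97.7, 98.7, 97.5, 98.5 and 97.4% in control samples and at 95.9, 93.9, 96.1, 96.7 and 97.5% in arsenic samples. All but arsenic 5 lay below every control, on 394 to 1041 reads, and the difference was -1.92 points (adjusted p = 0.702, limma). In Dnah1, an axonemal dynein gene, the levels were 96.8% ± 1.56 and 94.6% ± 1.40 (-2.26 points, adjusted p = 0.71, limma). Other regions of these lists had higher arsenic means or pointed both ways within a gene. The regions of Dync1h1, the heavy chain of cytoplasmic dynein, differed by 1.68 and -1.79 points and those of the kinesin gene Kif1a by 1.51 and -1.0 points, while that of Col15a1 differed by 1.58 points. Slc12a8 and Slc25a3, the mitochondrial phosphate carrier gene, differed by 0.0511 and 0.0472 points. The other solute carrier regions were lower, by -2.20 points in Slc38a1, -2.07 in Slc19a1 and -1.75 in the region shared by Acaa1a and Slc22a14. Lower arsenic means were also seen in Kif14 (-2.74 points) and in the cadherin genes Cdh23 (-2.66 points) and Celsr1 (-0.375 points). In these lists, 3 of 5 solute carrier regions, 2 of 3 collagen regions, 4 of 6 motor protein regions and 2 of 2 cadherin regions were lower, at adjusted p-values in limma that did not pass 0.05.

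The rule averages over all samples, and single samples reached 95% far more often. Among all autosomal regions, 3012, 2611, 1977, 1950 and 2816 stood at 95% or more in control samples 1 to 5 and 1326, 1429, 1558, 1947 and 2289 in arsenic samples 1 to 5. The arsenic samples had fewer on average, 1710 ± 400 against 2473 ± 487, but arsenic 5 exceeded control 3 and 4. With reads thinned to equal depth the counts were 2286 to 3502 in the control and 1512 to 2776 in the arsenic group, again with overlap.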

How the data were processed

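DNA methylation was measured by RRBS in 5 control and 5 arsenic pools of prospermatogonia, grouped by their titles. According to the submitters' processing notes and the methods, the authors trimmed reads with Trim Galore 0.6.5, mapped them to mm10 with Bismark 0.22.3 and united the calls with methylKit 1.22.0, requiring a coverage of 10 in all samples. The deposited table holds raw counts (coverage, methylated and unmethylated reads) for 1349101 stranded cytosines. Treatment of PCR duplicates and overlapping mates is not given in the sources used here, so reads may not be independent.

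Of these cytosines, 1328689 were autosomal and gave 1016650 CpGs after the strands were summed. The 19373 on X and Y and 1039 others were left out. CpGs at most 100 b apart were joined, with at least 3 per region. Limma 3.58.1 (R 4.3.3) was fitted on log2((methylated + 1)/(unmethylated + 1)) of all autosomal regions, two-sided, with Benjamini-Hochberg adjustment over all of them and without covariates. A run on simulated data changed only regions below the levels studied here, so it cannot show how well changes near the ceiling are found. Other steps ran in Python 3.11.15 with pandas 2.3.3, numpy 2.4.6, matplotlib 3.10.9 and scipy 1.17.1. Genes came from GENCODE M21 (basic set), and sequence and soft-masking from GRCm38.

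The regions, gene lists and tests were chosen with earlier results of these data known. Named regions were the largest drops and rises without overlap between the groups, those with the most CpGs, the highest level with at least 10 CpGs, the nearest to the threshold, the smallest p in each direction, the 3 windows of 1 Mb with the most members and the members within the gene lists. Other regions were named after their values were seen. The result of 1 gene list is not reported here. Alternatives were other coverage minimums, gaps, sizes, thresholds and averages, limma on percent, another added count, thinned reads, a fit blocked on replicate number and the omission of each sample in turn.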

Additional observations from a re-analysis of the deposited data

Results flagged for a closer look

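In groups of 5 samples, a sample was singled out when its gap to the nearest other was over 0.71 of the range of its group (Dixon's 95% value). This held for 14 of 194 groups tested, where chance gives about 10, and 3 of the 14 were arsenic sample 1.

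Over the near-fully methylated regions, arsenic 1 had a median of 31.5 reads per CpG, against 43.4 in the nearest other arsenic sample, although its calls over the whole table were the most of all samples. In regions with 50% or more of soft-masked bases it averaged 94.4%, against 95.7% in the nearest. In regions at 96 to 100%, control 4 averaged 96.2%, against 96.8%. In regions at 20 to 50%, control 1 averaged 40.5%, against 38.2%.

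Single regions gave the rest. In Helz, control 5 stood at 92.4% and arsenic 1 at 95.5%. Control 2 stood at 87.7% in Rps6ka2 and control 4 at 96% in Ccdc170. Arsenic 2 stood at 94.1% in Pebp4 and at 90.2% in Dnm2. Arsenic 4 stood at 92.7% in Slc25a3 and at 90.5% in Entpd7. Arsenic 5 stood at 87.2% in Kif14 and at 97.4% in Cep128.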

How the results depend on the processing

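The mean difference over the regions kept its direction under every alternative run. Of the 10 named regions that were followed, all but Rapgef6 kept the direction of their difference. The Rapgef6 difference, 0.106 points, was 0 with thinned reads and lay between -0.506 and 0.734 points when single samples were left out. The sample means of the groups stayed apart with at least 5 CpGs and in 8 of the 10 alternatives that left out a sample. They overlapped with a coverage of at least 20, a gap of 50 b, thresholds of 90% and 98%, unweighted CpG means and thinned reads. Adjusted calls were 0 in every fit. With a coverage of at least 20 there were 171 regions. At an unadjusted limma p under 0.05, 17 (9.94%, against 4.91% of all regions) were lower and 3 (1.75%, against 2.12%) higher. All arsenic samples lay above all controls in 0 of them, against 0.310% of all. With at least 5 CpGs there were 67 regions, 9 (13.4%, against 4.10% of all) lower and 1 (1.49%, against 2.44%) higher. Of the 67, 0 lay entirely below and 0 entirely above the controls, against 0.911 and 0.396% of all. A threshold of 90% gave 6519 regions, 450 (6.90%, against 4.89% of all) lower and 75 (1.15%, against 2.10%) higher. Of these regions, 79 (1.21%, against 1.01%) lay entirely below and 8 (0.123%, against 0.323%) entirely above the controls. A threshold of 98% gave 3 regions, a mean difference of -1.19 points and 0.311 points more unmethylated reads, with 0 regions lower, 0 higher and 0 without overlap. A gap of 50 b gave 484 regions, of which 2 (0.413%, against 0.798% of all) lay entirely below the controls. With unweighted CpG means 5 (1.40%, against 1.02% of all) were entirely below and 0 (against 0.306%) above. With thinned reads 3 (0.893%, against 0.762%) were entirely below and 0 (against 0.243%) above. Limma on the level in percent called 22 (6.55%, against 6.20% of all) lower and 2 (0.595%, against 1.80%) higher.

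Leaving out each sample in turn and choosing the regions again gave 302 to 421 regions, a mean difference of -0.856 to -0.528 points, 0.486 to 0.827 points more unmethylated reads, 19 to 41 regions lower and 4 to 13 higher at an unadjusted p, and 3 to 10 entirely below and 1 to 3 entirely above the controls. The 19 (6.29%, against 3.83% of all regions) came without control 1 and the 41 (11.8%, against 4.87%) without control 4. The 4 higher (1.25%, against 1.96%) came without control 2 and the 13 (3.09%, against 3.84%) without arsenic 1. The 3 entirely below (0.993%, against 1.41%) came without control 1 and the 10 (2.38%, against 1.34%) without arsenic 1. The 3 entirely above came without control 1 (0.993%, against 0.644%) and without arsenic 1 (0.713%, against 1.28%). Each such set held 79.8 to 92.3% of the 336 regions. Replicate numbers did not pair the samples: same-numbered samples correlated at -0.015 to 0.036 in their deviations, and 2 of 5 matched best with their own number. With the replicate number as a block, adjusted calls were 0. The mean difference of -0.765 points does not use the block, so this setting could not change it. At an unadjusted limma p under 0.05, 29 regions (8.63%, against 4.17% of all) were lower and 5 (1.49%, against 2.27%) higher.

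Depth limits single regions. At 144 reads a level near 96% has a counting interval of several points, wider than the mean shift, and the variance between control samples was 2.05 times the binomial one in the median region.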

Other observations

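The sex chromosomes were kept out of the rule. Of 2088 regions of X and Y formed in the same way, 4 averaged 95% or more.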
